A study of Drosophila melanogaster with 36 samples.

Results

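The genes described here encode the protein subunits of the mitochondrial complexes that carry out oxidative phosphorylation. Every gene was taken whose current symbol starts with ND-, COX, UQCR- or ATPsyn, together with blw, SdhA, SdhB, SdhC, SdhD, RFeSP and Cyt-c1, where a probe set named that gene alone. The names found 66 genes among the 10844 genes with such a probe set. They were 26 subunits of complex I, 3 of complex II, 5 of complex III, 7 of complex IV, 11 of complex V and 14 paralog copies, the "like" genes whose symbols end in L or L with a number. SdhA had no probe set of its own and was not analysed here, and 24 of the 90 annotated symbols that fit the names were not analysed here for the same reason.

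RNA of whole adult female Drosophila melanogaster was measured on 36 arrays. The flies came from a nonselected line and from a line selected for heat resistance. Flies of both lines were left untreated or heated to 36 °C for 1 h and sampled at 0.25, 1, 2, 4, 8, 16, 32 or 64 h of recovery. Each of the 18 combinations has 2 bioreplicates. Per the labels it is not known how many populations each line comprises, whether a sample pools flies, at which hour of the day flies were taken, or whether bioreplicates with the same number share a culture, and no untreated flies accompany the later times.

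Oxidative phosphorylation makes most of the ATP of an aerobic cell. Complex I and complex II pass electrons from NADH and succinate to ubiquinone, complex III passes them to cytochrome c, and complex IV passes them to oxygen. Complexes I, III and IV pump protons across the inner membrane, and complex V, the ATP synthase, makes ATP as the protons flow back. In flies the indirect flight muscle holds exceptionally dense mitochondria and is a main site of these transcripts.

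Tests covered the 8199 probe sets whose 4 highest arrays averaged 5 or more in log2 units, which is 32 in intensity. Of the 66 genes, 52 passed. The other 14 were COX7C, a small subunit of complex IV that lay between 2.74 and 3.36 on all arrays, and 13 of the 14 paralog copies. Among those that passed, ND-B8 reached 5 on 8 of 36 arrays and the paralog ATPsynbetaL on 13, so both sat near the lower end of measurement. A gene that is high in only some arrays can pass the limit through them, so counts are of genes tested, not of all members.

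The 4 series of 9 arrays, 1 for each line and bioreplicate number, stood apart from each other. Within the nonselected line, 54.2% of the 8199 probe sets differed between bioreplicate 2 and bioreplicate 1 (limma, adjusted p under 0.05), and within the selected line 35.1%. These calls set 9 arrays of 1 series against 9 of another, so the sampling points stand in for replicates. The log2 ratio of 3-prime to 5-prime signal of 3 control transcripts is a sign of how the RNA was preserved or labelled. It was 2.28 ± 0.20 (SD, n = 18) on bioreplicate 1 arrays and 1.55 ± 0.14 (SD, n = 18) on bioreplicate 2 arrays, with no overlap (2-sided permutation p = 2e-05, the smallest the permutations can give). The permutations also took sampling points as replicates, with 2 series for each number. One array, the selected line at 32 h in bioreplicate 2, held the highest summed signal of male reproductive genes, 13.83 on the log2 scale against at most 12.26 elsewhere, and 30 of 35 such genes were highest there. Results are therefore given by bioreplicate number as well as over all arrays.

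The subunit genes moved together from array to array. Each of the 51 tested genes outside the paralog copies was set against the mean of the other 50 over the 36 arrays. Pearson's r had a median of 0.92 and exceeded 0.8 for 44 genes. These values describe arrays that share line, time and bioreplicate number and are not a test. COX7A, a small subunit of complex IV, was least like the rest at 0.43, followed by ATPsynbeta, the catalytic beta subunit of the ATP synthase, at 0.59, and ATPsynC, the subunit of its membrane ring, at 0.68. Of genes outside the set, the most like the mean of the 51 were levy, a complex IV subunit named otherwise, at 0.97, CG14757 at 0.94, NP15.6, a complex I subunit named otherwise, at 0.94, Idh3a, a subunit of the NAD-dependent isocitrate dehydrogenase of the citric acid cycle, at 0.93, and Ald1, the glycolytic aldolase, at 0.92. In contrast, da, a helix-loop-helix transcription factor, had the lowest value at -0.84.

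**Figure D1:**
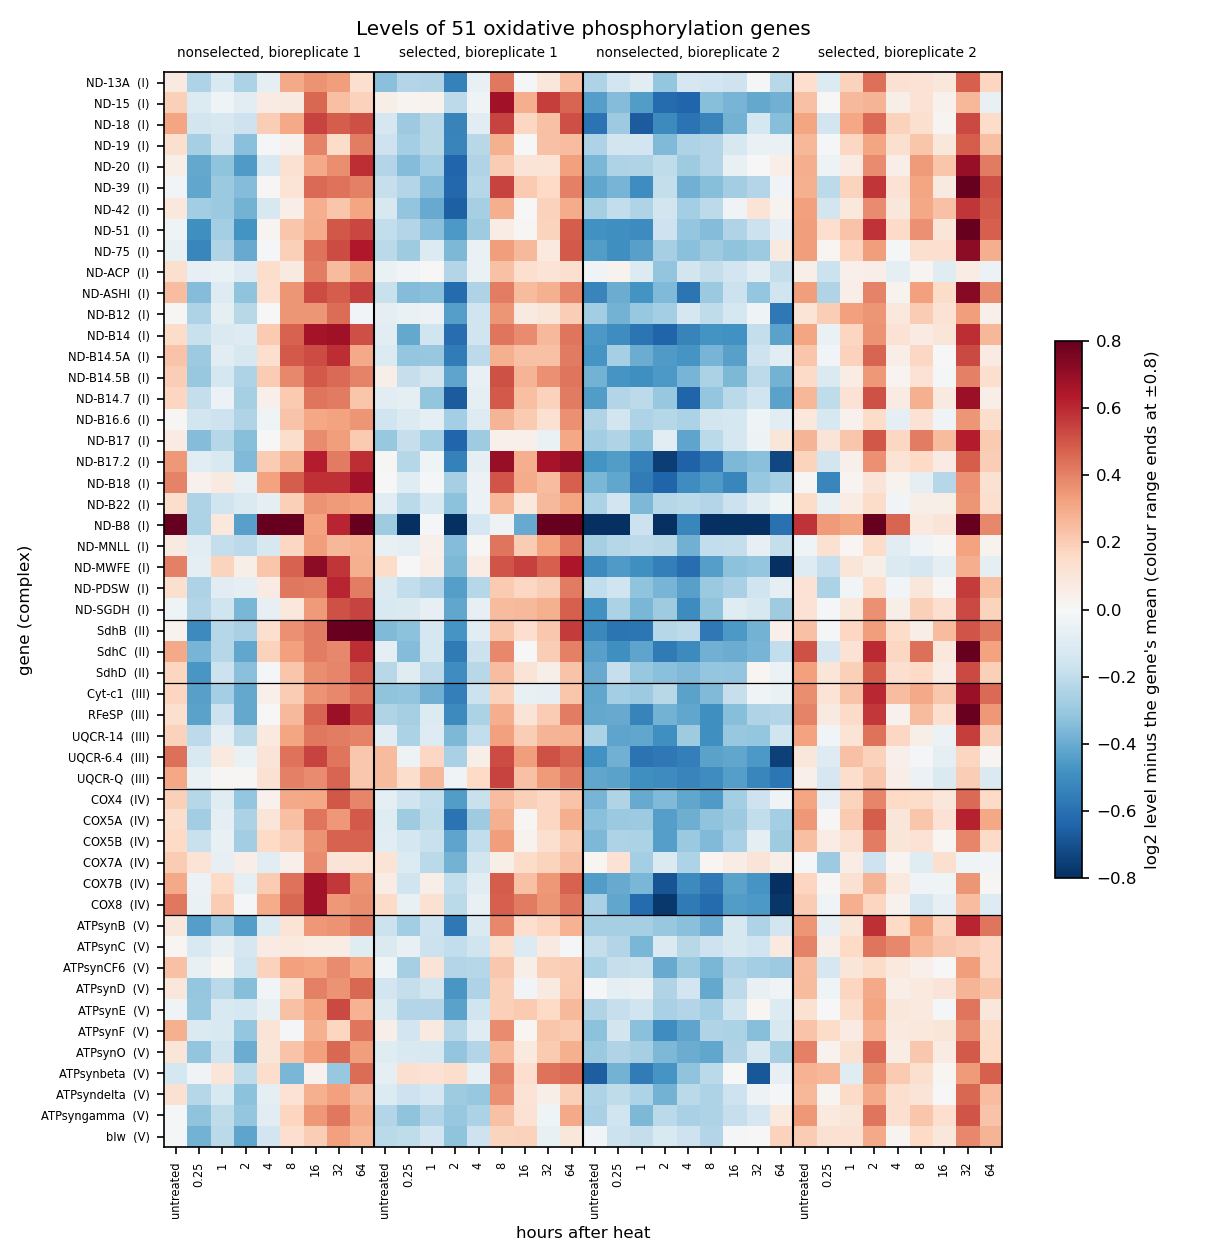
Log2 level of 51 oxidative phosphorylation genes (one row each, grouped by complex) on 36 arrays, relative to the gene's own mean; columns run from untreated to 64 h within each line and bioreplicate. Nearly every row of the nonselected bioreplicate 2 block is below its mean, and the bioreplicate 1 blocks pass from low at 2 h to high in late recovery.

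The mean of the 51 genes, each centred on its own mean over all arrays, showed where the arrays lay. In the nonselected bioreplicate 2 series it stayed between -0.38 and -0.21 at all 9 sampling points, with a mean of -0.31. It ran from -0.25 to 0.41 in nonselected bioreplicate 1, from -0.43 to 0.36 in selected bioreplicate 1 and from -0.04 to 0.48 in selected bioreplicate 2. Of the 51 genes, 30 had their lowest array in the nonselected bioreplicate 2 series and 19 in selected bioreplicate 1 at 2 h. Highest arrays fell in selected bioreplicate 2 for 23 genes and in nonselected bioreplicate 1 for 22. Of those 23 genes, 21 were highest on the selected 32 h bioreplicate 2 array, the one with the male reproductive signal.

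**Figure D2:**
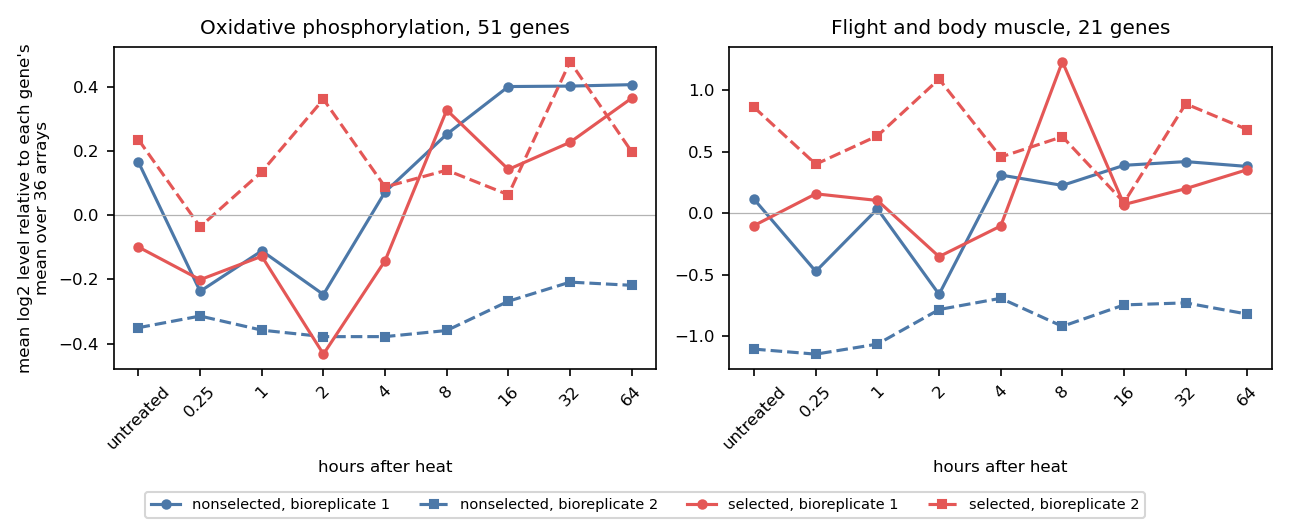
Left, mean log2 level of 51 oxidative phosphorylation genes on each array, relative to each gene's mean, against time after heat (untreated first, times not to scale); right, the same for 21 flight and body muscle genes. Each point is 1 array; both bioreplicate 1 series rose from 2 h to late recovery, and nonselected bioreplicate 2 stayed between -0.38 and -0.21 on the left and lowest at every point on the right.

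Against untreated flies, no gene of the set passed the test at any single time after heat. With 4 arrays at each time (both lines, 2 bioreplicates) against the 4 untreated arrays, limma called 0 of 52 at each of the 8 times. Of all tested probe sets, the shares called were 0.756% at 0.25 h, 1.27% at 1 h, 1.17% at 2 h, 0.354% at 4 h, 1.06% at 8 h, 2.39% at 16 h, 1.10% at 32 h and 3.57% at 64 h. At an unadjusted p under 0.05 there was 1 gene at 2 h, 2 at 32 h, 4 at 64 h and 0 at the other times. The standard error of a log2 change ranged from 0.10 to 0.70, with a median of 0.21, and it holds the offsets between the 4 series. With a term for each series, an alternative added after seeing the data, the median standard error at 64 h was 0.14 and 2 genes were called there, SdhB (adjusted p 0.0231) and ATPsynbeta (adjusted p 0.0133), against 10.1% of all probe sets, and 0 at the other 7 times.

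The log2 changes themselves had a median over the 52 genes of -0.18 at 0.25 h, -0.11 at 1 h, -0.17 at 2 h and -0.09 at 4 h, then 0.11 at 8 h, 0.11 at 16 h, 0.24 at 32 h and 0.20 at 64 h, while the median of all probe sets stayed between -0.02 and 0.04. The number of genes above their untreated mean was 3, 5, 2 and 5 at the first 4 times and 46, 45, 50 and 45 at the last 4. All 8 comparisons share the same 4 untreated arrays, and single arrays moved the medians. By bioreplicate number, the medians were -0.37 at 2 h, 0.26 at 8 h, 0.26 at 16 h, 0.27 at 32 h and 0.34 at 64 h in bioreplicate 1. In bioreplicate 2 they were 0.05, -0.04, -0.05, 0.21 and 0.06 at the same times, so the sign differed between the numbers at 2, 8 and 16 h. At 1, 2, 4, 8 and 16 h the median changed sign when 1 array was left out; at 16 h, for example, it was -0.07 without nonselected bioreplicate 1 at that time. In whole flies a change in RNA per cell and a change in the share of tissue cannot be told apart.

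SdhB, the iron-sulfur subunit of succinate dehydrogenase, had the largest log2 change at 64 h. Its untreated log2 levels were 10.56 and 10.01 in the nonselected line (bioreplicates 1 and 2) and 10.18 and 10.77 in the selected line. At 64 h they were 11.43 and 10.57 in the nonselected line and 11.09 and 10.95 in the selected line. Each series was higher at 64 h than untreated, yet the 4 arrays of each time overlapped, and the log2 change of 0.63 (SE 0.27) had an adjusted p of 0.254 in limma. The lowest adjusted p at 64 h, 0.13, belonged to ATPsynbeta, with a log2 change of 0.48 (SE 0.16). ND-75 and ND-20, iron-sulfur subunits of complex I, stood at 0.47 and 0.41 at that time with adjusted p of 0.308 and 0.342. At 32 h, ND-SGDH, an accessory subunit of complex I, and ATPsynE of the ATP synthase stood at 0.43 and 0.35. COX7A was the gene at 2 h, at -0.23 (SE 0.10, adjusted p 0.624).

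In the first hours the lowest values were those of ND-B8, an accessory subunit of complex I read near the floor, at -0.83 at 0.25 h and -0.56 at 2 h (SE 0.70). SdhC, a membrane anchor of succinate dehydrogenase, stood at -0.41 at 0.25 h, -0.25 at 1 h and -0.32 at 2 h, and ND-ASHI, an accessory subunit of complex I, at -0.30 at 0.25 h and -0.18 at 1 h. COX7A stood at -0.20 at both 1 h and 4 h. At 2 h COX8, a small complex IV subunit, stood at -0.34 and ND-B17.2 of complex I at -0.33. COX8 was lowest of the 52 at 4 h (-0.20), at 32 h (-0.01) and at 64 h (-0.15). None of these values passed the test. ATPsynbeta and ATPsynbetaL went the other way from the median at 0.25 h, with log2 changes of 0.15 and 0.18.

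An F-test over the untreated flies and all 8 times called 0 of 52 genes, against 13.2% of all probe sets. At an unadjusted p under 0.05 limma found 3, namely ND-20, ND-42 and COX7A, with adjusted p of 0.146, 0.153 and 0.171. With a term for each series the F-test called 17 of 52, against 32.1% of all probe sets, with the lowest adjusted p for ND-42 (0.00584) and ND-20 (0.00711).

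Late recovery differed from early recovery for most of the set. The 12 arrays at 16, 32 and 64 h were set against the 12 at 0.25, 1 and 2 h, none of which are untreated arrays. Of 52 genes, 30 were higher late and 0 lower (limma, adjusted p under 0.05), and 39 had an unadjusted p under 0.05. Of all probe sets, 18.2% were higher late and 17.1% lower. The median log2 difference of the set was 0.32 (1.25-fold), against -0.03 over all probe sets, and 51 of the 52 values were above 0. The early and late arrays overlapped in each of the 52 genes, and at most 8 of 12 late arrays lay above all early ones.

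**Figure D3:**
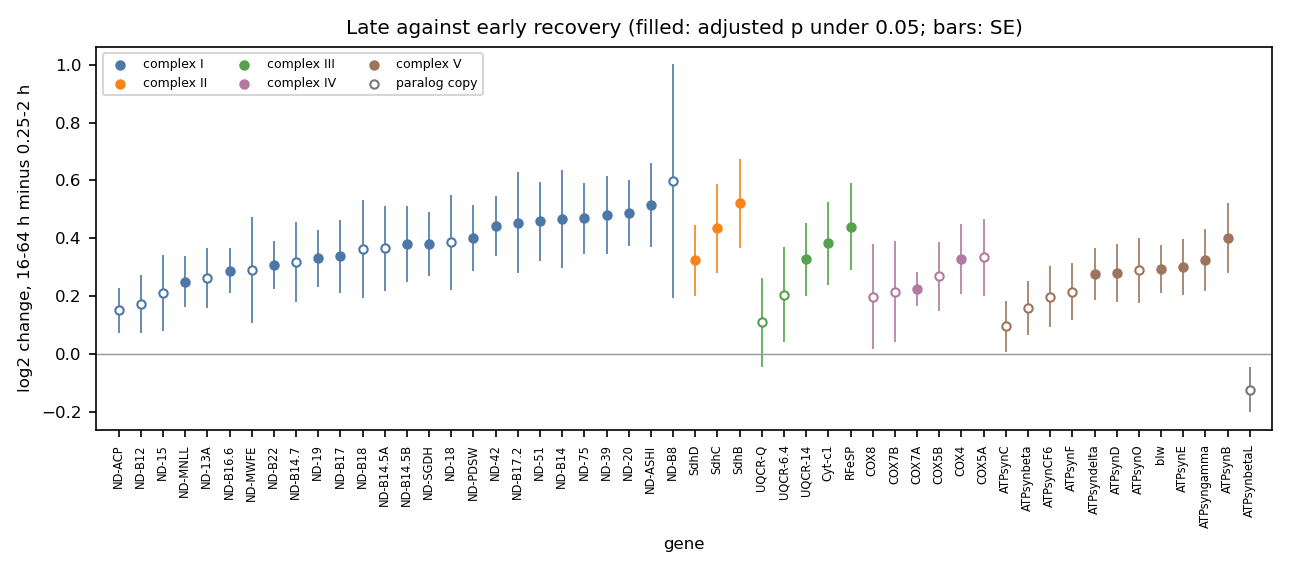
Log2 difference between late (16 to 64 h) and early (0.25 to 2 h) recovery for each of the 52 tested genes, ordered by complex and size; bars are the standard error of the fit and filled points have an adjusted p under 0.05. The 30 filled points all lie above 0 and occur in each of the 5 complexes.

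In complex I, which oxidises NADH, 16 of 26 genes were higher late. ND-75, ND-51 and ND-20, which belong to the electron-carrying core of the enzyme, were all called higher, by 0.46 to 0.49. Of the 23 accessory subunits, 13 were called higher, and the values of all 23 were above 0, from 0.15 to 0.60. ND-20 was 9.41, 9.78 and 10.42 (lowest, median and highest of 12 arrays) early and 9.99, 10.31 and 10.74 late. The groups overlapped, with 3 late arrays above all early ones, and the log2 difference was 0.49 (SE 0.11, adjusted p 0.00216). ND-42, an accessory subunit, was 10.07, 10.46 and 11.10 early against 10.69, 10.95 and 11.30 late, with a log2 difference of 0.44 (SE 0.10, adjusted p 0.00219). ND-ASHI differed by 0.51 (SE 0.14) and ND-39, another accessory subunit, by 0.48 (SE 0.14). Smaller rises were found for ND-PDSW (0.40), ND-B22 (0.31) and ND-B16.6 (0.29). ND-ACP, the mitochondrial acyl carrier protein that also serves as a complex I subunit, stood at 0.15 (SE 0.08) and was not called. ND-B8 had the largest value, 0.60, but also the largest standard error, 0.40, and was not called.

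All 3 measured genes of complex II, which also acts in the citric acid cycle, were higher late. SdhB was 9.95, 10.28 and 10.86 (lowest, median, highest) early and 10.07, 10.87 and 11.43 late, with a log2 difference of 0.52 (1.43-fold, SE 0.15, adjusted p 0.012). Late arrays reached higher, and 6 of 12 exceeded every early array, while the lowest late array lay inside the early range. SdhC differed by 0.43 (SE 0.15, adjusted p 0.033) and SdhD, the other membrane anchor, by 0.32 (SE 0.12, adjusted p 0.0454).

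In complex III, 3 of 5 genes were higher late. RFeSP, the Rieske iron-sulfur protein, differed by 0.44 (SE 0.15, adjusted p 0.0269) and Cyt-c1, the cytochrome that hands electrons to cytochrome c, by 0.38 (SE 0.14, adjusted p 0.0415). The small subunit UQCR-14 differed by 0.33, with an adjusted p of 0.0494 next to the threshold. UQCR-6.4 (0.21) and UQCR-Q (0.11) were not called.

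In complex IV, 2 of 6 tested genes were higher late, COX4 by 0.33 (adjusted p 0.0372) and COX7A by 0.22 (SE 0.06, adjusted p 0.00539). COX7A was 11.59, 11.86 and 12.09 early and 11.94, 12.08 and 12.35 late, with 5 late arrays above all early ones. Its difference was smaller than the set's median but its arrays scattered less. COX5A, another nuclear-encoded subunit, was at 0.34 and missed the threshold (adjusted p 0.0554). COX8 and COX7B were not called at 0.20 and 0.22.

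In complex V, 6 of 11 genes were higher late, namely ATPsynB of the peripheral stalk (0.40, SE 0.12), ATPsyngamma and ATPsyndelta of the central stalk (0.33 and 0.28), ATPsynE (0.30), ATPsynD (0.28) and blw, the alpha subunit (0.29, SE 0.08, adjusted p 0.00898). The alpha and beta subunits form the catalytic head together. The beta subunit gene ATPsynbeta had a log2 difference of 0.16 (SE 0.09, adjusted p 0.191) and was not called, and the difference between the 2 genes was not tested. ATPsynC was lowest of the complex at 0.10 (SE 0.09). The paralog copy ATPsynbetaL, at -0.12 (SE 0.08), was the 1 gene of the 52 below 0.

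The rise was much larger on the arrays of bioreplicate 1. Of 52 genes, 37 were higher late in all 4 series, 9 in 3, 5 in 2 and 1 in 1. The mean of 51 genes rose by 0.60 in nonselected bioreplicate 1 and by 0.50 in selected bioreplicate 1. It differed by 0.12 in nonselected bioreplicate 2 and by 0.09 in selected bioreplicate 2, where it was -0.02 without the 32 h array. The 3-prime to 5-prime log2 ratio of the control transcripts was 2.52, 2.28 and 2.43 early and 1.97, 1.83 and 2.08 late in nonselected bioreplicate 1, with no overlap. In selected bioreplicate 1 it was 2.18, 2.32 and 2.49 early and 2.23, 2.30 and 2.18 late, which overlapped, and its part in the rise was not tested. Fitted on bioreplicate 1 alone, with 6 arrays against 6, 49 genes were higher late (median 0.53; 25.0% of all probe sets were higher). On bioreplicate 2 alone only ND-20 (0.27, adjusted p 0.0424) and ND-42 (0.28, adjusted p 0.0295) were called higher (median 0.12; 10.2% of all probe sets). The difference between bioreplicate numbers was itself called for 6 genes, all larger in bioreplicate 1, against 0.195% of all probe sets. They were SdhB, ND-B14.5A, ND-B14, ND-B14.5B, ND-SGDH and ATPsynE, with differences from 0.47 (ATPsynE) to 0.61 (SdhB) and a lowest adjusted p of 0.0323.

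On bioreplicate 1 arrays the F-test over time called 44 of 52 genes, against 22.3% of all probe sets, and on bioreplicate 2 arrays limma called 0, against 6.89%, with 2 at an unadjusted p under 0.05. With 2 arrays of bioreplicate 1 at each time, SdhC was lower than untreated at 2 h (0.66-fold, adjusted p 0.0485; 1 of 52 genes, against 2.00% of all probe sets) and ND-B14 was higher at 16 h (1.41-fold, adjusted p 0.0425; 1 of 52, against 7.01%). At 64 h, 6 of 52 genes were higher, against 7.87% of all probe sets called in either direction. They were SdhB (1.85-fold, adjusted p 0.00735), ND-75 (1.63-fold), ND-51 (1.54-fold), ND-SGDH (1.5-fold), ND-20 (1.47-fold) and ND-B16.6 (1.35-fold). SdhB on bioreplicate 2 arrays stood at 1.30-fold at 64 h (adjusted p 0.281).

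Single arrays moved the count of 30 as well. It was 16 without nonselected 16 h bioreplicate 1, without nonselected 32 h bioreplicate 1 or without selected 2 h bioreplicate 1. It was 18 without nonselected 64 h bioreplicate 1 or without selected 32 h bioreplicate 2, the array with the male reproductive signal. It was 19 without bioreplicate 1 of the selected line at 0.25, 1 or 64 h. Whichever array was left out, 16 genes kept their call, namely ATPsynB, ATPsynE, blw, COX7A, SdhB and 11 of complex I (ND-19, ND-20, ND-39, ND-42, ND-51, ND-75, ND-ASHI, ND-B16.6, ND-B22, ND-PDSW and ND-SGDH). With the whole nonselected bioreplicate 2 series left out, 42 genes were higher late and the median of the set was 0.44. The share of all probe sets was not computed for the counts with arrays left out, so they cannot be read against it.

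Egg-shell transcripts moved with recovery time too. Over all probe sets, 18.2% were higher late and 17.1% lower, and each list is given as its own shares. Of 15 tested chorion, vitelline membrane and follicle cell genes, 0 were higher and 9 (60.0%) lower late, with Cp19, a chorion protein gene, at a log2 difference of -5.40. Their summed log2 level ran from 14.88 to 16.67 on early arrays and from 12.07 to 16.39 on late arrays. Of 25 germline genes, 2 (8.00%) were higher and 5 (20.0%) lower late, with summed levels of 15.05 to 15.31 early and 14.71 to 15.25 late. Of 21 muscle genes, 2 (9.52%) were higher, Mlp84B and sls, and 0 lower late. Their summed levels were 13.56 to 15.45 early and 13.70 to 15.10 late. The median log2 difference of the 21 muscle genes was 0.31, close to the 0.32 of the subunit genes, though few were called. Over the 36 arrays the mean of the muscle genes had a Pearson's r of 0.86 with that of the subunit genes. Of 3 tested male reproductive genes, 2 were higher late, and the summed level of the 35 on the array ran from 10.42 to 11.91 early and from 11.49 to 13.83 late. The part of these tissues in the rise was not tested.

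The lines differed in 2 of 52 genes over all 18 arrays each, both higher in the selected line. Of all probe sets, 6.13% were higher in that line. The 9 sampling points of a series count as separate arrays in this test, though each line has only 2 series. An offset of a whole series does not average out over them, so standard errors and p-values can be too small. This holds for every line comparison over all arrays. ATPsynbeta was 9.001, 9.47 and 10.13 (lowest, median, highest) in the nonselected line and 9.58, 9.85 and 10.15 in the selected line. The selected arrays were higher at all 9 sampling points when bioreplicates were averaged, the ranges overlapped, and the log2 difference was 0.41 (1.33-fold, SE 0.08, adjusted p 0.00253). ND-15, an accessory subunit of complex I, differed by 0.34 (SE 0.11, adjusted p 0.044). The median of the 52 was 0.19, against -0.05 over all probe sets, and 18 had an unadjusted p under 0.05. COX7A was the 1 gene with a lower value in the selected line, at -0.06 (SE 0.05). Among untreated flies alone, with 2 arrays against 2, limma called 0 of 52, as it did 0% of all probe sets, with 1 gene, ATPsynbeta, at an unadjusted p under 0.05. A line-by-time interaction was called for 0 of 52 and 0% of all probe sets, with 0 at an unadjusted p under 0.05.

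**Figure D4:**
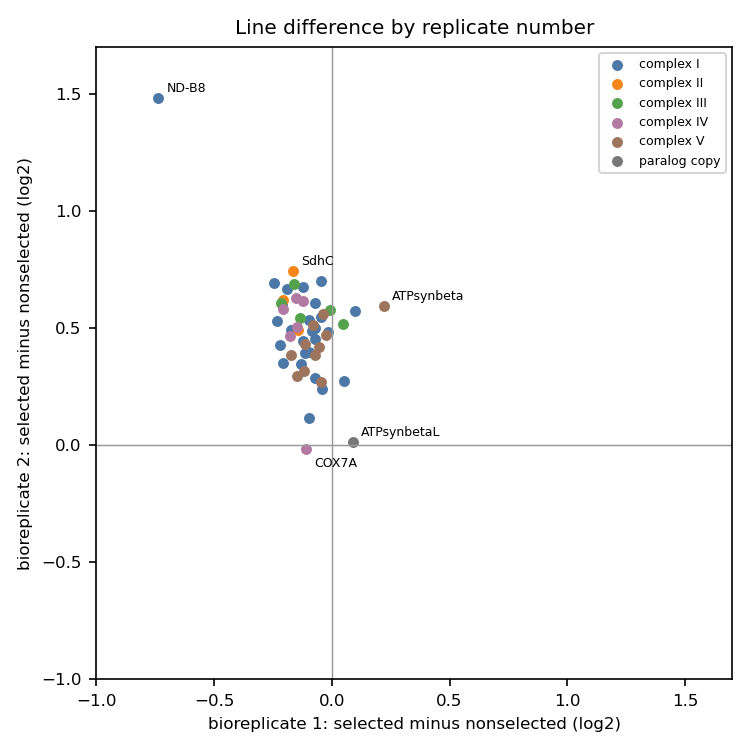
Selected minus nonselected line in mean log2 level over 9 sampling points, in bioreplicate 1 (horizontal) and bioreplicate 2 (vertical), for each of 52 genes, coloured by complex. In 46 genes the value is below 0 in bioreplicate 1 and above 0 in bioreplicate 2, and ATPsynbeta is above 0 in both.

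The line difference had opposite signs in the bioreplicate numbers. In bioreplicate 1, 47 of the 52 genes were lower in the selected line (median -0.11), and in bioreplicate 2, 51 were higher (median 0.49). Fitted apart, with 9 arrays of 1 series against 9 of another, so that the sampling points stand in for replicates, bioreplicate 1 gave 4 genes lower in the selected line (ND-B14, ND-B14.5A, ND-B18 and ND-B8), against 3.68% of all probe sets, and bioreplicate 2 gave 49 higher, against 15.0%. The line difference itself differed between bioreplicate numbers for 46 of 52 genes, all larger in bioreplicate 2, against 7.87% of all probe sets. In this test too the sampling points stand in for replicates, with 1 series for each line and number. SdhC illustrates the pattern: its mean was 9.40 in nonselected bioreplicate 1, 9.23 in selected bioreplicate 1, 8.85 in nonselected bioreplicate 2 and 9.59 in selected bioreplicate 2. The 1 low value there is that of nonselected bioreplicate 2. With that series left out, limma called 0 genes between lines and the median was -0.01.

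ATPsynbeta was higher in the selected line in both bioreplicate numbers, by 0.22 (adjusted p 0.198) in bioreplicate 1 and 0.59 (adjusted p 0.00115) in bioreplicate 2. The difference between these values was called by limma (adjusted p 0.0348), again with sampling points in the place of replicates. ATPsynbeta was called between lines whichever single array was left out, whereas ND-15 was not. Leaving out 1 array cannot show whether a call rests on a whole series. With the nonselected bioreplicate 2 series left out, ATPsynbeta was not called either. COX7A had line values of -0.11 and -0.02 and a bioreplicate difference of 0.09 (adjusted p 0.426).

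Muscle transcripts differed between the same series. The mean of 21 flight and body muscle genes, each centred on its own mean, was -0.89 in nonselected bioreplicate 2, 0.08 in nonselected bioreplicate 1, 0.17 in selected bioreplicate 1 and 0.64 in selected bioreplicate 2, so the line difference was 0.09 in bioreplicate 1 and 1.53 in bioreplicate 2. Over all arrays 16 of the 21 (76.2%) were higher and 0 lower in the selected line, against 6.13% of all probe sets higher. An example is bt, the giant muscle kinase projectin, at 0.97 (SE 0.16). Their summed log2 level ran from 13.53 to 14.74 in the nonselected line and from 14.17 to 15.63 in the selected line. All 3 yolk protein genes were lower in the selected line, with ratios to the nonselected line of 0.80 (Yp1), 0.72 (Yp2) and 0.74 (Yp3). The share of all probe sets lower in that line was not computed. The part of muscle in the subunit genes' differences was not tested.

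Other mitochondrial lists were read beside the set and beside the 18.2% of all probe sets that were higher late. Of 12 tested genes listed for electron transport outside the names and for ADP and phosphate exchange, 5 (41.7%) were higher late and 0 lower. They were levy (0.31), the dehydrogenase of pyrimidine synthesis Dhod (0.27), the phosphate carrier Mpcp2 (0.26), the ADP/ATP carrier sesB (0.24) and the electron transfer flavoprotein subunit wal (0.21). The list's median was 0.24, against 0.32 for the set. It includes subunits of the same complexes under other names, such as levy, so it is not apart from the set. Of 9 genes listed for the citric acid cycle and reactions next to it, 4 (44.4%) were higher late and 0 lower. They were Idh3a (0.40), ScsbetaA (0.28), Idh (0.22) and ScsbetaG (0.17), and the list's median was 0.31. Of 64 mitochondrial ribosomal protein genes, which make the machinery that translates the mitochondrial genome, 9 (14.1%) were higher late and 0 lower, with a median of 0.07, a share below that of all probe sets. Of 11 regulators of mitochondrial biogenesis, 1 (9.09%) was higher late, ewg, the fly relative of nuclear respiratory factor 1 (0.43, SE 0.09, adjusted p 0.00117), and the list's median was -0.11. Of 9 assembly factors, 1 (11.1%) was higher, CIA30 of complex I assembly (0.17), with a median of 0.02. No test set these lists against the subunit genes.

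The paralog copies that were not tested sat near the bottom of the scale on nearly all arrays. Several such copies of respiratory chain genes are known from the fly testis. COX4L had 1 high value, 6.17 on the log2 scale in the selected line at 32 h, bioreplicate 2, while the other 35 arrays had 3.399, 3.67 and 4.61 (lowest, median, highest). COX5BL stood at 3.41 on that array and at most at 2.33 on the others. ATPsynGL and UQCR-14L were also highest there, at 4.78 against at most 4.60 and at 2.95 against at most 2.93, so these 2 hardly left the range of the others. Of all 5767 probe sets that were not tested, 8.7% were highest on that array. The other 9 untested paralog copies were highest on selected 0.25 h bioreplicate 2, as were 53.4% of all untested probe sets.

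**Figure D5:**
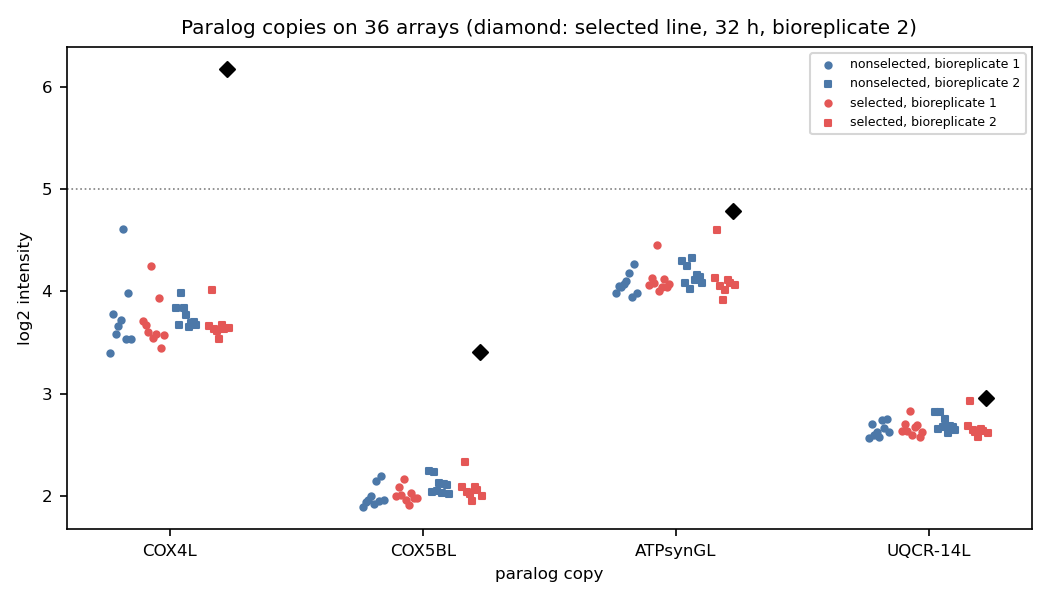
Log2 intensity of 4 untested paralog copies on each of 36 arrays; colour gives the line, shape the bioreplicate, and the black diamond the selected line at 32 h in bioreplicate 2. The dotted line is the limit of 5. COX4L is the 1 copy that crosses it, on that array at 6.17.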

How the data were processed

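The authors deposited probe set intensities on a linear scale. The submitters' processing notes name GCRMA and no version. That method models background from the bases of each probe, brings arrays to a common distribution and summarises the probes of a set, so low values sit near a floor and levels of different probe sets were not compared. Values ran from 1.15 to 46856, and log2 was taken with no pseudocount. The 44 control probe sets of 14010 were left out. Of the other 13966, 12443 had 1 gene symbol in the platform annotation, updated through Entrez identifiers, 327 had several and 1196 none. Each gene was read from its probe set with the highest mean (ATPsynC and ND-MNLL had 2). Array medians ran from 43.5 to 52.0 in intensity. Precision is limited by the number of arrays.

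Group means of 18 groups of 2 arrays were fitted with limma 3.58.1 in R 4.3.3 (18 residual degrees of freedom, median residual SD 0.24) over all 8199 probe sets, with Benjamini-Hochberg adjustment within each comparison and a threshold of 0.05. Over all arrays, p-values measure the spread between bioreplicates, whose origin the labels do not describe. Named genes were the 4 highest and 4 lowest of each comparison after heat and of late against early, 5 and 5 for lines, those with the smallest F-test p, every gene called, complex II, the 5 most alike genes outside the set, and untested members highest in the array with most male signal. Other names were added after their values were seen. The members, roles and lists were chosen with earlier results of these data known. Fits by bioreplicate number held line and time as additive terms. They have 1 array per line and time, so their p-values measure the scatter of lines across times, and their line difference compares 1 series with 1 other. The fit was tested on simulated data. The main fit did not pair arrays by bioreplicate number, since the labels do not say what arrays of the same number share. Deviations from group means correlated above 0.1 in 121 of 153 pairs of groups (-0.43 to 0.78, median 0.33). The median was 0.45 for pairs within a line and 0.24 for pairs across lines. Arrays of the same series, and less so of the same number, thus shared offsets, which the main fit leaves in its error. In the subunit genes the mean was 0.12 and -0.31 in nonselected bioreplicates 1 and 2, and 0.01 and 0.18 in selected bioreplicates 1 and 2. Between the numbers it thus moved in opposite directions in the lines. Such offsets do not cancel in the line difference. Alternatives left out each array, dropped the filter, centred arrays on their medians, and added a replicate or series term.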

Additional observations from a re-analysis of the deposited data

Results flagged for a closer look

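4 paralog copies that no comparison tested had their highest value on the selected 32 h bioreplicate 2 array, above every untreated array. COX4L stood at 6.17 on the log2 scale there (highest untreated array 3.84), COX5BL at 3.41 (2.24), ATPsynGL at 4.78 (4.30) and UQCR-14L at 2.95 (2.82). The other bioreplicate of the selected line at 32 h was not high, at 3.45, 1.98, 4.04 and 2.58 for the 4 genes in that order. Of the 35 male reproductive genes on the array, 30 were highest in the same sample, and its part in these values was not tested.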

How the results depend on the processing

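Of the values of the named genes over 49 alternatives, 4887 kept their direction and side of the threshold, 247 were no longer called, 23 became called in the same direction, and 157 that were called in neither fit changed sign. The median line difference was -0.11 on bioreplicate 1 alone and -0.01 without the nonselected bioreplicate 2 series. ND-B8, not called between lines over all arrays, was called lower in the selected line on bioreplicate 1 alone (-0.74). Leaving out each of the 36 arrays in turn moved the count of genes higher late from 16 to 40, the count between lines from 1 to 9 (9 without selected 2 h bioreplicate 1, 6 without nonselected 32 h bioreplicate 1, 5 without nonselected 64 h bioreplicate 1) and the F-test count from 0 to 2, and no other count left 0. With the replicate block, 7 genes differed between lines and 37 were higher late, and with selected 32 h bioreplicate 2 also left out the counts were 4 between lines, 1 at 64 h and 1 by F-test. A replicate term of its own in each line (series block) gave 29 between lines, 46 late, 17 by F-test and 2 at 64 h. Between lines, the sampling points stand in for replicates in that setting, and the main fit also counts them as separate arrays. Bioreplicate 1 alone gave 1 gene at 2 h, 1 at 16 h, 6 at 64 h, 49 late, 44 by F-test and 4 between lines. Bioreplicate 2 alone gave 2 late and 49 between lines. With the nonselected bioreplicate 2 series left out, 0 genes differed between lines. Centring arrays gave 4 between lines. No filter on low values gave 1 between lines and 1 by F-test. The causes were not tested, and shares of all probe sets were computed for only some of these counts. The settings with a replicate term, with 1 bioreplicate number or without a series were chosen after seeing the data, except the plain replicate block. Intensity near the floor limits what can be said of ND-B8, COX7C and the paralog copies.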
